A study of Mus musculus with 4 samples.

Results

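Ventral forebrain and interneuron genes were followed in cultured neural stem cells of the mouse cortex. The genes are the 9 named Sp8, Gsx1, Gsx2, Dlx1, Dlx2, Nkx2-1, Lhx6, Gad1 and Gad2, taken by symbol from the 55414 genes of the deposited count files, and all 9 were found. During development the floor of the forebrain, the ganglionic eminences, produces the inhibitory neurons that later migrate into the cortex. There, progenitors express the homeobox factors Gsx1 and Gsx2, the Dlx factors act downstream of them, Nkx2-1 sets up the medial eminence, and Lhx6 follows Nkx2-1 in the interneurons it gives rise to. Gad1 and Gad2 encode the glutamate decarboxylases that make the transmitter GABA. Sp8, a zinc finger factor, is found in the lateral eminence and its interneurons, and also in the progenitors of the cortex itself.

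Gene counts came from 4 RNA sequencing libraries, 2 of wild type cells and 2 of Mettl4 knockout cells. All were labelled primary neural stem cells, derived from cortex of E14.5 embryos, expanded as spheres in EGF and basic FGF, and then plated as a monolayer. Mettl4 encodes an adenosine methyltransferase. The labels do not say which part of the gene was removed, in which cells, or whether the replicates came from separate embryos or cultures, and the p-values below rest on whatever spread these libraries have, part of it perhaps technical.

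Total counts were 12812064 and 16883734 for the wild type libraries, and for the knockout 18150389 and 19310668. Levels are given as CPM, counts scaled to library size with TMM factors, always in the order wild type 1, wild type 2, knockout 1, knockout 2. Mettl4 stood at 63.8, 66.6, 15.6 and 17.6 CPM, lower in both libraries labelled knockout (edgeR log2 fold change -1.97, SE 0.17, adjusted p = 0.0051). It was the 1 gene called among 19912 tested at an adjusted p under 0.05. Wild type replicate 1 stood apart from the other 3 libraries in its sex-linked RNA. The Y-linked gene Ddx3y had 626 counts in it and 0 in each of the others. Xist, the RNA of the inactive X, stood at 286 CPM there against 3335, 3475 and 3488 CPM. The wild type libraries were therefore not technical repeats of the same culture. For some of the genes that stood apart in wild type replicate 1, fold changes are therefore given with and without it.

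The cell label was checked against marker genes. All 12 neural stem cell markers listed, among them Sox2, Nes and Fabp7, passed the low-count filter, and their summed level ran from 5542 to 6473 CPM. Summed microglial markers stood at 6.84 to 8.02 CPM, endothelial markers at 4.71 to 5.85 CPM, red blood cell markers at 8.66 to 11.9 CPM and astrocyte markers at 374 to 485 CPM. The 9 mesenchymal and mural markers summed to 32.7, 28.2, 21.8 and 19.7 CPM, lower in both knockout libraries. Foxc1, named after its values were seen, made up most of each sum, at 22.7, 20.9, 17.5 and 16.0 CPM. None of the markers was called by edgeR, DESeq2 or limma-voom. Of the 3 tested, 2 had an unadjusted edgeR p under 0.05, against 2.77% of all genes tested. Of 12 interneuron subtype products listed, 3 passed the filter. Reln had 41 to 98 counts a library, Htr3a 29 to 54 and Pvalb 8 to 14. The other products had few or no counts. Vip, Npy and Chat had no counts in any library, Sst had 1 count in 1 library, and Slc32a1, the vesicular GABA transporter, had none. Of 16 dorsal factors listed, 2, Neurog1 and Wnt8b, were also at 0 in all libraries. The 7 tested had 4 positive and 3 negative log2 fold changes, none called. Among them, Pax6, a factor of dorsal progenitors, stood at 38.9 to 45.2 CPM and Lhx2 at 18.9 to 32.5 CPM. The dorsal factors not tested were near the limit of detection. Emx1 had 3 to 13 counts a library, Neurog2 1 to 5 and Eomes 3 to 6.

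The start regions of 3 progenitor factors are given here because Sp8 and Gsx2 carry most of the variation described below and Gsx1 does not. Each is the 250 bases before the annotated start, from RefSeq on the GRCm38.p6 build, on the plus strand and read 5′ to 3′. For Sp8, which has 3 annotated starts, the first of these is shown. The windows are chr12:118846079-118846328 for Sp8, chr5:75075351-75075600 for Gsx2 and chr5:147188446-147188695 for Gsx1. Capitals in the sequences mark TATAAA, the letters of a TATA box, and GGGCGG, the letters of a GC box, on either strand.
Sp8: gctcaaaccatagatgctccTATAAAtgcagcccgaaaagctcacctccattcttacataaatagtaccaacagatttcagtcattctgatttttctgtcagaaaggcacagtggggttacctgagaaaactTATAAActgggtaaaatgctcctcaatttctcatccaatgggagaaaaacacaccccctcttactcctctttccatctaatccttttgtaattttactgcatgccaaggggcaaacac
Gsx2: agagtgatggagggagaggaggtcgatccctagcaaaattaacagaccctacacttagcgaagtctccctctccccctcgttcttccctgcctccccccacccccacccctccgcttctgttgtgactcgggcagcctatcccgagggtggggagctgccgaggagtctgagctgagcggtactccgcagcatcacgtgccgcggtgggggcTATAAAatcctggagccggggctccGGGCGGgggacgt
Gsx1: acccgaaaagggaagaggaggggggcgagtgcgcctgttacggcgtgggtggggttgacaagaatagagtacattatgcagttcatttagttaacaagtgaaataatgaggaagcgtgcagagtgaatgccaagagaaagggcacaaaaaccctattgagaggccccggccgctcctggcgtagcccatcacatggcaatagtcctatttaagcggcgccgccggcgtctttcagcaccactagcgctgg
The Sp8 window shown held 2 TATAAA matches and the Gsx2 window held 1 TATAAA and 1 GGGCGG. Gsx1 held neither. TATAAA occurred in 12.4% and GGGCGG in 32.7% of 32851 windows of the same length. The homeodomain core TAATTA was found in none of the 3 windows shown, and in 4.84% of all windows. The other start windows of Sp8 differed from the one shown. The second held 1 GGGCGG and the third 1 TAATTA, and neither held TATAAA. G and C made up 67.2% of the second. G and C made up 40.8% of the Sp8 window shown, 63.6% of the Gsx2 window and 54.0% of the Gsx1 window.

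Detection set the limits of what could be measured. Of the 9 genes, 7 had counts in every library, Nkx2-1 had 1 count in 1 library, and Lhx6 had none. Sp8, Gsx1, Gsx2, Dlx1 and Gad1 had enough counts for the test, while Dlx2, Gad2, Nkx2-1 and Lhx6 did not. None of the 5 was called by edgeR's quasi-likelihood test, against 0.00502% of all genes tested, and none had an unadjusted p under 0.05, against 2.77%. DESeq2, which called 0.0443% of its genes, and limma-voom, which called 0.00502%, called none of them either. A filter of at least 1 CPM in 2 libraries left out Dlx1 as well. Under it 0.00562% of genes and none of the ventral genes kept were called. With the replicate block, 0.0452% of genes and none of the 5 were called. In bulk RNA, a lower level from fewer expressing cells and one from less RNA per cell cannot be told apart.

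**Figure D1:**
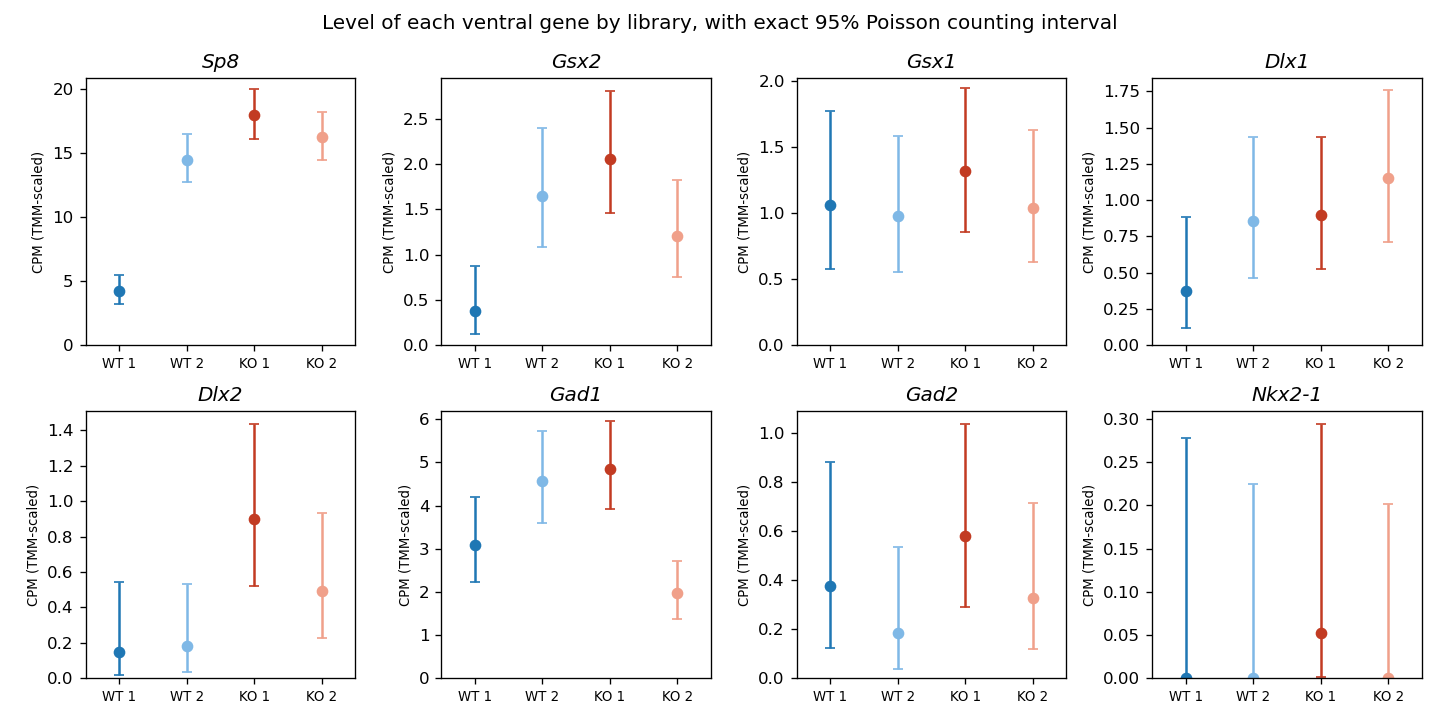
Level in CPM, in the 4 libraries, of each gene with any count. For Sp8 the wild type 1 library lies at 4.23 CPM, away from the other 3 at 14.51 to 18.0 CPM. For Gad1 the knockout 2 library is the lowest.

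Sp8 had the highest level per length. Its gene lies on chromosome 12 (ENSMUSG00000048562.8 in the files). Its counts were 56 and 238 in wild type and 341 and 297 in knockout cells, or 4.23, 14.51, 18.0 and 16.3 CPM. Wild type replicate 1 was the low library, and both knockout libraries lay above both wild type libraries. Wild type libraries averaged 9.37 ± 7.27 CPM and knockout libraries 17.1 ± 1.23 CPM (SD, n = 2 each). The log2 fold change, knockout minus wild type, was 0.85 with an SE of 0.46 and a 95% interval from -0.22 to 1.93, and edgeR's adjusted p was 1.00. Unadjusted, edgeR's p was 0.104, so the difference was not resolved from the spread between these replicates.

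That spread came from the wild type. Replicate 2 held 3.43 times the Sp8 level of replicate 1, with a 95% interval of 2.56 to 4.68 that covers counting error only. On the log2 CPM scale with a prior count of 2, the gap was 1.75. Of 4509 tested genes of like mean level, 0.133% had a gap between the wild type libraries at least as large, and the median gap was 0.227. Between the knockout libraries the Sp8 gap was 0.15, below the median of 0.250 among the same genes.

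Library by library, the knockout levels of Sp8 were close to wild type replicate 2 and far from replicate 1. Knockout 1 had 4.26 times and knockout 2 had 3.85 times the level of wild type 1. Against wild type 2 the ratios were 1.24 (counting interval 1.05 to 1.47) and 1.12 (0.941 to 1.33). Without wild type replicate 1, the log2 fold change was 0.24 and Sp8 was not called, while 0.156% of all genes were. Without wild type replicate 2 it was 2.03, and Sp8 was then called (edgeR adjusted p = 7.58e-05), as were 0.0854% of all genes. Both fits have 1 wild type library and assume that it varies as the knockout libraries do. Whether the sex-linked difference of wild type replicate 1 has a part in this was not tested.

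**Figure D2:**
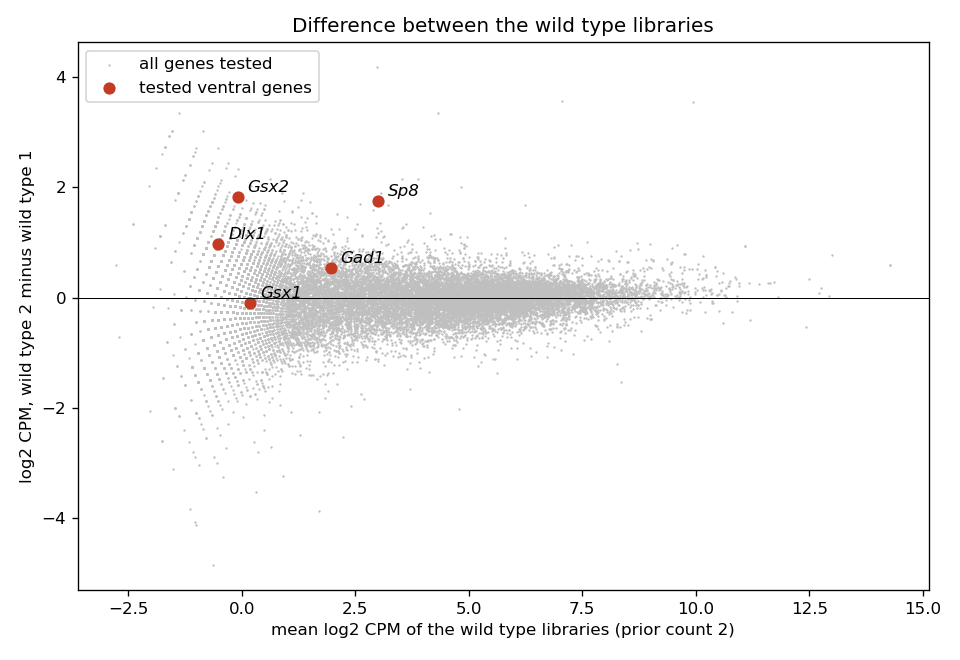
Difference in log2 CPM between the wild type libraries (replicate 2 minus replicate 1) against mean level, with all tested genes as grey points. Sp8 and Gsx2 lie at 1.75 and 1.83, above nearly all genes of like level, while Gsx1 lies near 0.

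Gsx2, the homeobox factor that patterns lateral eminence progenitors, followed a similar course at far lower counts. Its counts were 5, 27, 39 and 22, which are 0.377, 1.65, 2.06 and 1.20 CPM. Wild type replicate 1 was again the lowest, but the groups overlapped, since knockout 2 lay below wild type 2. The wild type libraries differed 4.36-fold (counting interval 1.66 to 14.51). On the log2 CPM scale the gap was 1.83, and one at least as large was present in 1.41% of 4815 genes of like level. The log2 fold change was 0.64 (SE 0.59, 95% interval -0.68 to 1.96). Without wild type replicate 1 it was -0.01, and without replicate 2 it was 2.10 (edgeR adjusted p = 0.891).

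Gsx1, the close relative of Gsx2 in the same progenitors, was even across the libraries. Its counts of 14, 16, 25 and 19 correspond to 1.06, 0.976, 1.32 and 1.04 CPM, and the groups overlapped. Wild type replicate 2 stood at 0.923 times replicate 1 (0.422 to 2.04). In 87.8% of genes of like level the wild type gap was at least as large. The log2 fold change was 0.22 (SE 0.46), with a 95% interval from -0.80 to 1.24 that holds both a rise and a fall. No stretch of 50 bases was shared between the transcripts of Gsx1, Gsx2 and Sp8, or between any of the 9 genes.

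The Dlx genes, homeobox factors of the committed interneuron lineage, were near the limit of detection. Dlx1 had 5, 14, 17 and 21 counts, or 0.377, 0.854, 0.897 and 1.15 CPM. Wild type 1 was lowest, and both knockout libraries lay above both wild type libraries, though knockout 1 exceeded wild type 2 by only 1.05-fold (counting interval 0.487 to 2.30). The wild type gap was matched or passed by 19.4% of genes of like level. The log2 fold change was 0.69 (SE 0.57, 95% interval -0.57 to 1.95), and it was 0.26 without wild type replicate 1 and 1.43 without replicate 2. Dlx1as, an RNA antisense to Dlx1, shares 335 exon bases with it. Since the strand setting of the counting is not given, reads from these bases cannot be assigned to either gene. Dlx1as stood at 1.36, 2.74, 1.58 and 1.59 CPM, and wild type 2 was its highest library. The log2 fold change was -0.39 (SE 0.42).

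Dlx2 did not pass the filter. Its counts of 2, 3, 17 and 9 correspond to 0.151, 0.183, 0.897 and 0.493 CPM. Both knockout libraries lay above both wild type libraries. The ratio of wild type 2 to wild type 1 was 1.21, with a counting interval of 0.139 to 14.51 that takes in the ratios of Sp8 and Gsx2, so the spread between the wild type libraries was not measurable for Dlx2. The summed counts, 5 against 26, give a ratio of 4.14 with a counting interval of 1.57 to 13.8, which leaves out the spread between cultures. Tested without the filter, its log2 fold change was 2.01 and edgeR's adjusted p 0.995, in a fit that called 0.124% of genes. Dlx3, Dlx4, Dlx5, Dlx6 and Dlx6os1 had no counts in any library. Groups set apart in this way, with both knockout libraries higher, were seen for 3 of the 8 genes with any count (Sp8, Dlx1 and Dlx2) and for 11.9% of the 33177 genes with any count.

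Nkx2-1 and Lhx6, the pair that marks the medial eminence and its interneurons, were not detectable at this depth. Nkx2-1 had 1 count, in knockout 1 (0.0528 CPM). Lhx6 had 0 counts in each library, and 3 counts, the upper limit that a count of 0 allows, amount to 0.226, 0.183, 0.158 and 0.164 CPM.

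Gad1 was the better measured of the GABA-making enzymes. Its counts of 41, 75, 92 and 36 correspond to 3.09, 4.57, 4.85 and 1.97 CPM. The groups overlapped, with knockout 1 the highest and knockout 2 the lowest library. Group means were 3.83 ± 1.05 and 3.41 ± 2.04 CPM (SD, n = 2 each), and the log2 fold change was -0.17 (SE 0.42, 95% interval -1.11 to 0.76). Wild type 2 held 1.48 times the level of wild type 1 (0.997 to 2.22), and the wider spread lay in the knockout. Knockout 2 held 0.406 times the level of knockout 1 (counting interval 0.268 to 0.603), and 2.04% of 4126 genes of like level had as large a gap between the knockout libraries. Without knockout replicate 1 the log2 fold change was -0.97, and without knockout replicate 2 it was 0.33. Neither value was called, in fits that called 0.236% and 0.00502% of all genes.

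Gad2, the second decarboxylase, had 5, 3, 11 and 6 counts, or 0.377, 0.183, 0.580 and 0.328 CPM, and did not pass the filter. Its groups overlapped. Summed counts of 8 and 17 give a ratio of 1.69, with a counting interval of 0.692 to 4.53 that includes no difference.

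**Figure D3:**
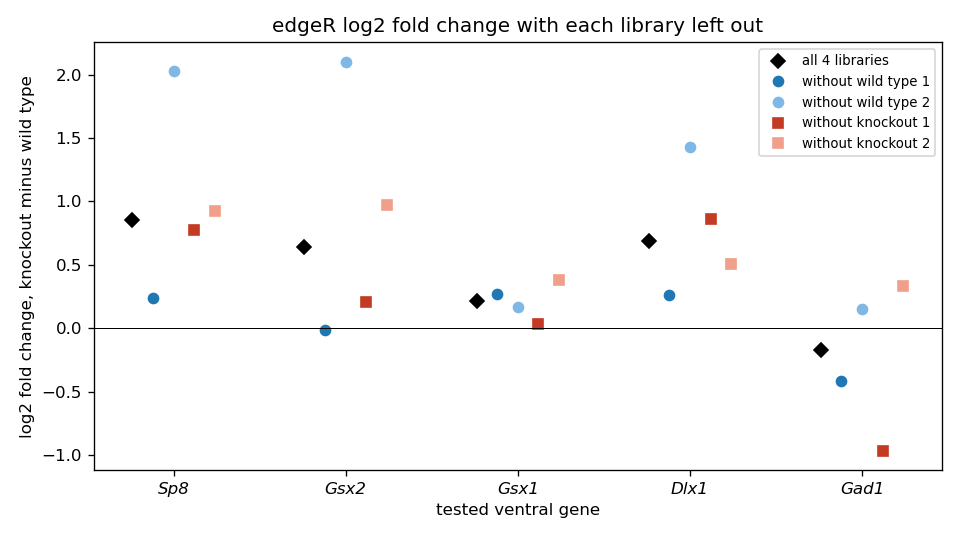
edgeR log2 fold change of the 5 tested genes with all 4 libraries and with each library left out. Sp8 moves between 0.24 and 2.03 and Gsx2 between -0.01 and 2.10 depending on which wild type library is used, while Gsx1 stays between 0.04 and 0.38.

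Among the 5 tested genes, 3 (Sp8, Gsx2 and Dlx1) were at least 2-fold higher in wild type 2 than in wild type 1 in CPM, and none the other way. The Dlx1 ratio of 2.26 had a counting interval of 0.770 to 8.02 that includes no difference. Its gap was matched or passed by 19.4% of genes of like level. Over all genes tested, 6.89% differed 2-fold or more between these libraries, 665 higher in replicate 2 and 707 higher in replicate 1. The 3 genes share the same low library, so their gaps are not separate observations.

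Compared per kilobase of exon, Sp8 had the highest mean level over the 4 libraries, 2.91 CPM per kb (range 0.927 to 3.95). Gsx2 followed at 0.794 (0.227 to 1.24), Gsx1 at 0.619 (0.550 to 0.744) and Gad1 at 0.474 (0.258 to 0.635), in the same unit. The ranges of Gsx2, Gsx1 and Gad1 overlap, so their order does not exceed the spread. Dlx1 averaged 0.114 CPM per kb in the wild type and 0.190 in the knockout, and Dlx2 averaged 0.0585 and 0.243, with overlapping ranges over the 4 libraries. Gad2 stood at 0.0625. Sp8 was the highest of the 9 in each library. Of the 9 genes' summed CPM, which was 9.66, 22.9, 28.7 and 22.4, Sp8 alone made up 43.8%, 63.3%, 62.8% and 72.4%.

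**Figure D4:**
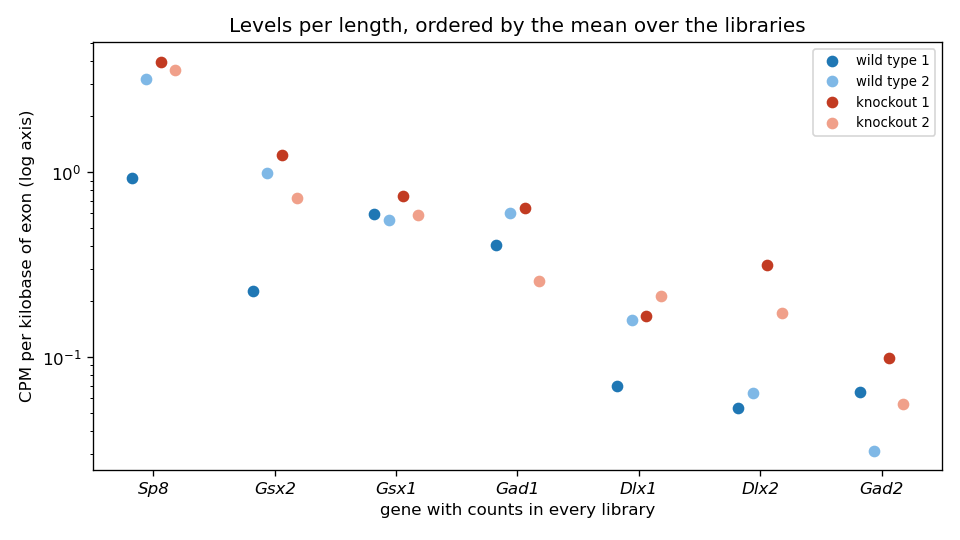
Levels per kilobase of exon (log axis) of the 7 genes with counts in every library, ordered by their mean over the 4 libraries. Sp8 leads at a mean of 2.91 CPM per kb, and Gsx2, Gsx1 and Gad1 overlap.

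Other genes of the ventral lineage ranged from abundant to absent and showed no call. The glial and ventral progenitor factor Olig2 stood at 440 to 509 CPM, while Helt had no counts and Isl1 had 1, each named here after its values were seen. Of 15 further ventral progenitor factors, 12 were tested, 9 with a positive and 3 with a negative log2 fold change, and none was called by edgeR, DESeq2 or limma-voom or had an unadjusted p under 0.05. Their median log2 fold change was 0.11, against -0.00 over all genes tested. Nkx6-2, a homeobox factor, stood at 2.19, 4.57, 5.33 and 4.71 CPM, lowest in wild type 1 (log2 fold change 0.55, SE 0.35). Without wild type 1 its log2 fold change was 0.13, and without wild type 2 it was 1.21. Six3, named after its values were seen, ran the other way between the wild type libraries, at 11.2 and 3.23 CPM.

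Of 13 factors of later interneurons, 12 were tested, 4 positive and 8 negative, with a median of -0.15 and no call by any of the 3 tools, nor an unadjusted p under 0.05. Sox6, which acts in medial eminence interneurons and also in glial precursors, stood at 176, 203, 211 and 231 CPM. Satb1 stood at 66.6, 62.3, 72.4 and 73.3 CPM. Nr2f2, a caudal eminence factor named after its values were seen, was at 11.1 CPM in wild type 1 and 1.83 CPM in wild type 2. Wild type 1 was thus not low in every gene of the lineage.

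Of 7 further genes of GABA handling, 5 were tested, 2 positive and 3 negative, with a median of -0.07, none called and none with an unadjusted p under 0.05. The GABA transporter Slc6a11, which glia also use, stood at 205 to 284 CPM. Of 12 interneuron subtype products only Htr3a, Pvalb and Reln were tested. Reln stood at 7.40, 4.33, 4.17 and 2.24 CPM, with both knockout libraries below both wild type libraries (log2 fold change -0.86, SE 0.37, unadjusted p = 0.045), and was not called. Its log2 fold change was -0.43 without wild type 1 and -1.19 without wild type 2. Htr3a, at 2.57, 1.77, 1.90 and 2.96 CPM, overlapped between groups.

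**Figure D5:**
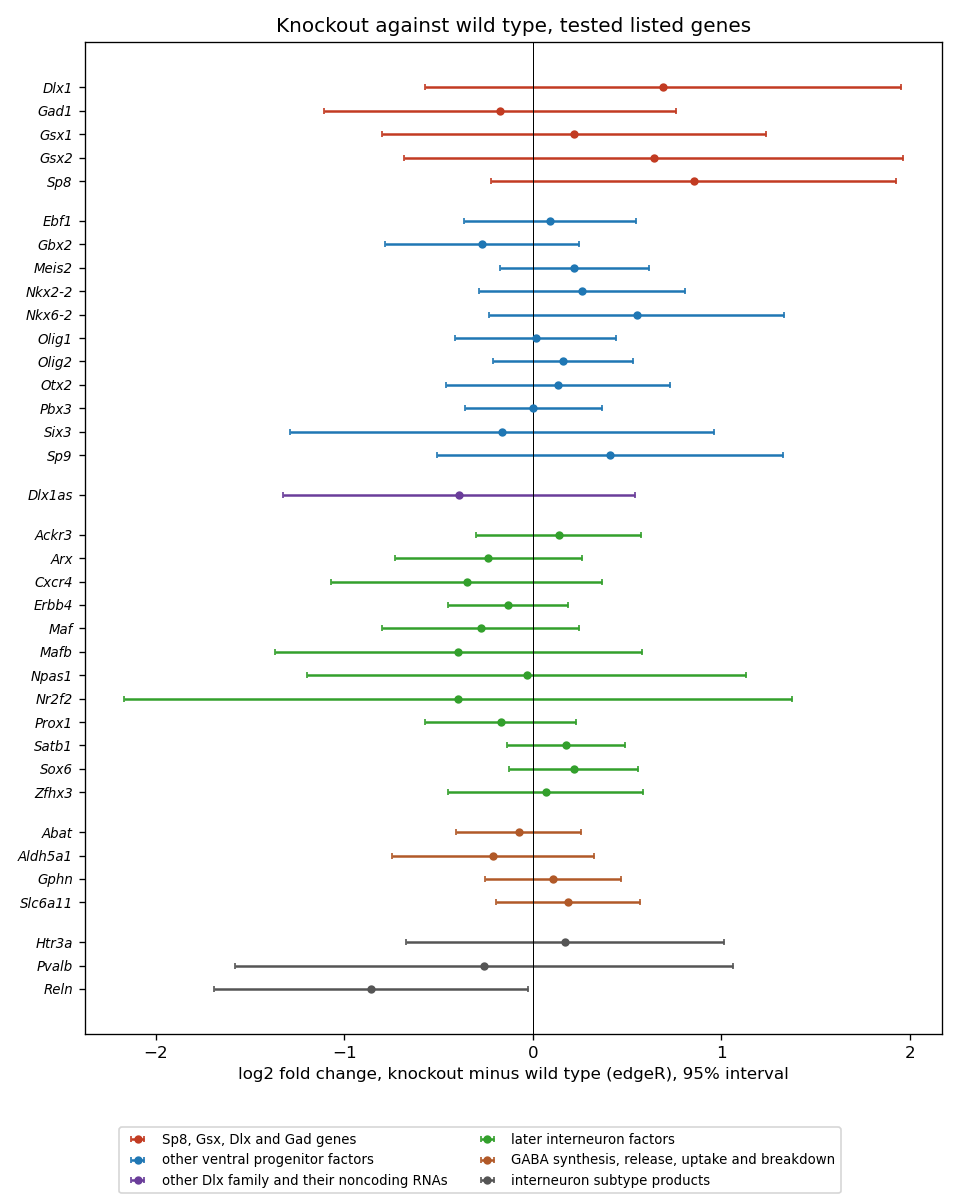
edgeR log2 fold change, knockout minus wild type, with its 95% interval for tested genes of 6 lists, coloured by list. Every interval shown includes 0 except that of Reln.

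Hedgehog signalling ventralises the forebrain, and Gli3 opposes it. Of 9 genes of the pathway, 6 were tested, 4 positive and 2 negative, with a median of 0.02 and none called. Gli3, at 21.96, 20.2, 25.6 and 32.3 CPM, had an unadjusted p under 0.05 (log2 fold change 0.46, SE 0.19). DESeq2 and limma-voom called no gene of the pathway.

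Markers of other lineages also differed between the wild type libraries, some in the direction of Sp8 and Gsx2 and some against it. Of the pan-neuronal markers, 3 of 9 tested (Dcx, Elavl4 and Syt1) were at least 2-fold higher in wild type 2 and none in wild type 1. Dcx, a marker of young neurons, stood at 1.51, 4.33, 6.49 and 3.12 CPM (log2 fold change 0.69, or 0.15 without wild type 1). Snap25, a synaptic protein gene, stood at 6.11, 6.83, 5.28 and 3.34 CPM. The 10 pan-neuronal markers summed to 1118, 1429, 1233 and 1463 CPM, of which Map2 alone made up most, at 1000 to 1335 CPM. Of the dorsal factors, Emx2 stood at 3.55, 8.54, 7.49 and 10.9 CPM and Nr2f1 at 53.6, 38.7, 37.0 and 35.2 CPM. Elavl4, Syt1, Map2 and Emx2 were named after their values were seen.

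In the oligodendrocyte precursor list, 3 of 7 tested genes (Sox10, Gpr17 and Mbp, the last named after its values were seen) were at least 2-fold higher in wild type 2. The list held 6 positive and 1 negative log2 fold changes, with a median of 0.38. None was called by edgeR, DESeq2 or limma-voom, and 2 had an unadjusted p under 0.05. Sox10, a factor of the lineage, stood at 0.528, 1.34, 3.22 and 2.52 CPM, with both knockout libraries above both wild type libraries (log2 fold change 1.57, SE 0.45, and 1.09 without wild type 1). Gpr17, a receptor of its precursors, stood at 2.57, 5.85, 9.34 and 8.26 CPM, with the groups set apart in the same way (1.04, SE 0.35, and 0.59 without wild type 1). The 7 markers summed to 71.2, 61.8, 95.9 and 74.9 CPM.

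Microglial P2ry12 followed the wild type gap of Sp8, at 0.453, 1.83, 1.53 and 1.75 CPM (log2 fold change 0.48, or -0.16 without wild type 1), whereas Csf1r stood at 5.81, 4.15, 5.43 and 4.10 CPM. Ptprc and Pecam1, named after their values were seen, were also at least 2-fold higher in wild type 2. Counts in wild type 1 and 2 were low, at 2 and 10 for Ptprc, 3 and 16 for Pecam1 and 6 and 30 for P2ry12. These gaps are limited by depth. Globin genes ran the other way, with 4 of 5 tested red blood cell markers at least 2-fold higher in wild type 1. Their counts were low as well, with 15 and 2 for Hba-a1 in wild type 1 and 2. Hba-a1 stood at 1.13, 0.122, 1.37 and 1.20 CPM and Hba-a2, its near-identical copy, at 0.755, 0.244, 1.21 and 1.31 CPM, so reads of the pair may be split between them. The endothelial genes Esam and Tek stood at 1.32 to 2.19 CPM and 0.930 to 1.22 CPM.

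Among genes of stem cells and glia, Sox9 stood at 63.2, 57.4, 84.2 and 81.3 CPM (log2 fold change 0.46, SE 0.14, unadjusted p = 0.0090), higher in both knockout libraries, and Slc1a3 at 1098, 1206, 995 and 873 CPM. Aldh1l1, an astrocyte enzyme, stood at 110, 158, 247 and 198 CPM (0.73, SE 0.20, unadjusted p = 0.0037), and was called in the fit without a low-count filter (edgeR adjusted p = 0.0109). Sparcl1 stood at 70.2, 96.3, 58.4 and 67.5 CPM (-0.40, SE 0.18, unadjusted p = 0.045). The contractile genes Acta2 and Tagln, at 6.64, 3.66, 2.59 and 1.81 CPM and at 2.11, 1.52, 0.686 and 0.930 CPM, were the mesenchymal markers below an unadjusted p of 0.05. None of these was called in the reported edgeR fit. The part of any of these lineages in the Sp8 and Gsx2 values was not tested.

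The genes nearest to Gsx2 in pattern were sought among 13562 tested genes by the root mean square distance of centred log2 CPM over the 4 libraries. Gsx2 was used because it has the largest range of the 9. The 5 nearest were Plxna4os2 (0.099), Dcx (0.178), Cldn11 (0.193), Asic4 (0.204) and Has2os (0.210), and Sp8 came 9th. The same search from Sp8, added after its values were seen, gave Has2os (0.088), Gpx7 (0.196), Ehhadh (0.197), Cybrd1 (0.199) and Gpr17 (0.213), with Gsx2 13th. Such a search over 4 libraries returns genes that share the low library of the gene searched from, here wild type 1, and is a description only.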

How the data were processed

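RNA was measured by sequencing in 2 wild type and 2 Mettl4 knockout libraries. The authors deposited unnormalised counts per gene, made with STAR 2.7.10 and featureCounts on GRCm39, per the submitters' processing notes. No source used here gives the strand or multi-mapping settings. Identifiers were matched to symbols with a GENCODE annotation of GRCm38, used for names, chromosomes and exon lengths (52081 of 55414 matched). From the counts, 19912 genes passed filterByExpr (minimum count 10) and were tested with edgeR 4.0.16 (R 4.3.3, TMM, quasi-likelihood F test, robust=TRUE, Benjamini-Hochberg over all genes). Counting intervals are exact 95% values and, like the limit of 3 counts, ignore the spread between cultures, as reads carry no molecular identifiers. Alternatives used DESeq2 1.42.0, limma 3.58.1, other scalings and filters, each library left out and a replicate block. The genes and lists were chosen with earlier results of these data known. The rule for naming genes takes the 9, Mettl4, up to 2 tested genes of smallest p per further list, Dlx1as and the 5 nearest to Gsx2. Other listed genes are named outside it, among them Sox2, Nes, Fabp7, Pax6, Lhx2 and Pvalb. So are genes with few or no counts, such as Vip, Sst and Neurog1. A few genes that this rule takes are not reported here. Proteins were not used here; transcripts were compared by shared stretches of 50 bases instead. The fit was tested on simulated counts with the same dispersion for every gene, which do not cover a library that stands apart.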

Additional observations from a re-analysis of the deposited data

How the results depend on the processing

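Other scalings, limma-voom, robust=FALSE and at least 1 CPM in 2 libraries left the count of called genes at 1. It was 41 without the low-count filter, 9 with DESeq2 and 9 with the replicate block, and 1 to 47 with a library left out. The 9 ventral genes had no call in any of these fits except without wild type replicate 2, where Sp8 was called (0 to 1 over the left-out libraries), and 8 rather than 5 of them were fitted without the filter. With a library left out, the log2 fold change turned sign for some named genes. It ran from -0.011 (without wild type replicate 1) to 2.10 for Gsx2, from -0.97 to 0.33 (without knockout replicate 2, and 0.15 without wild type replicate 2) for Gad1, and from -0.79 to 0.23 (without wild type replicate 2) for Dlx1as. It ran from -0.18 (without knockout replicate 2, and -0.068 without wild type replicate 2) to 0.46 for Htr3a, and from -0.063 (without knockout replicate 1, and -0.018 without wild type replicate 2) to 0.18 for Sufu. It ran from -0.27 to 0.20 (without wild type replicate 1, and 0.13 without knockout replicate 2) for Csf1r and from -0.16 (without wild type replicate 1) to 1.85 for P2ry12. Gpr17 was called without wild type replicate 2 (1.79, edgeR adjusted p = 0.0269). The cause was not tested. Same-numbered libraries deviated together with a correlation of 0.316 over 17425 genes. With 2 pairs and no label for it, whether the numbers pair the libraries cannot be decided. Sp8 under the replicate block had a log2 fold change of 1.00 (edgeR adjusted p = 0.753). The Gsx, Dlx and Gad2 values, at 2 to 39 counts a library, are limited by depth. Dlx1 was not fitted with the filter of at least 1 CPM in 2 libraries.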
